A study of Mus musculus with 6 samples.

Results

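The genes described here encode the proteins of the cytosolic ribosome. They were chosen by symbol alone, as every gene named Rpl or Rps followed by a number and at most 1 letter a, x or y, together with Rplp0, Rplp1, Rplp2 and Rpsa, and 75 of the 16668 genes listed for each library met this rule. Of these, 46 belonged to the large (60S) subunit and 29 to the small (40S) subunit.

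The study asked which genes depend on Ring1B (gene symbol Rnf2) and Dzip3, 2 ubiquitin ligases of histone H2A, in mouse embryonic stem (ES) cells. E14 ES cells, a wild-type line of the 129/Ola strain, were grown without feeder cells at passage 3 to 5 in N2B27 medium with 1 µM of the MEK inhibitor PD0325901, 3 µM of the GSK3 inhibitor CHIR99021 and 1000 U/ml of leukaemia inhibitory factor. All 6 libraries share this line and medium. Their labels divide them into control, Ring1B-KD and Dzip3-KD (siRNA knockdown), with 2 libraries each, and the paper calls these biological duplicates. Values were RPKM, the number of reads mapped to a single gene, scaled by exon length and by the library's mapped reads. The label and the condition word in the deposited file's name differed for 4 of the 6 libraries. In order of file number from 01 to 06, the labels read control, control, Ring1B-KD, Ring1B-KD, Dzip3-KD and Dzip3-KD, whereas the words read control, Ring1BKD, Dzip3KD, control, Ring1BKD and Dzip3KD.

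The targeted genes did not follow the labels. Rnf2 measured 30.6 and 20.4 RPKM in the control-labelled libraries, 26.8 and 28.8 in those labelled Ring1B-KD and 19.4 and 28.2 in those labelled Dzip3-KD, so its lowest values lay in files 02 and 05. Dzip3 measured 2.24 and 2.68 RPKM in the control-labelled libraries, 1.18 and 1.89 in those labelled Ring1B-KD and 1.70 and 1.31 in those labelled Dzip3-KD, and its lowest values lay in files 03 and 06. Files 02 and 05 carry the word Ring1BKD, and files 03 and 06 the word Dzip3KD. Both genes were thus lowest where the file-name word named them. Each comparison is therefore given by label first and then by file-name word, and every group name below is a label, not a verified condition. The 10 ES cell markers summed to between 1553 and 2055 RPKM per library and all were detected, whereas 8 primitive endoderm markers summed to 6.64 to 9.86 RPKM. The 4 fibroblast markers listed summed to 1.18 to 3.10 RPKM, 6 neural markers to 19.5 to 39.0 and 5 trophectoderm markers to 10.1 to 15.2. In bulk RNA, fewer cells of a type and less RNA per cell cannot be told apart.

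A ribosome carries equal copies of nearly all its proteins, and cells keep their synthesis in balance. In mammals the mRNAs are coordinated largely at translation. Most carry a 5′ terminal oligopyrimidine (TOP) tract, a run of C and T bases that begins with the first transcribed base, through which mTOR signalling and the RNA-binding protein Larp1 adjust how much of the mRNA is translated. Growing ES cells spend a large part of their mRNA on these proteins. The same abundance has left the mouse genome full of processed pseudogenes, intronless copies made by reverse transcription of the spliced mRNA, so a short read from such an mRNA often matches several places.

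A run of pyrimidines like that of a TOP tract lay at the annotated start of a minority of these genes. The RefSeq promoter table (GRCm38.p6, 250 bases before to 50 bases after each start) held 56 of the 75 genes, and in 13 of them (23.2%) a start coincided with a C followed by at least 4 further pyrimidines, read on the transcribed strand only. The same held for 3.01% of the 27025 gene symbols in the table. With the start allowed to lie up to 5 bases away, the shares were 48.2% (27 genes) and 21.2%. The stretches from 15 bases before to 15 bases after the start are shown for 4 genes with the run, in capitals, and for Rps4x, whose annotated start had none. They lie at chr4:86857353-86857382 (minus strand), chr7:4792950-4792979 (plus), chr7:141447636-141447665 (plus), chr17:27635230-27635259 (minus) and chrX:102189377-102189406 (minus) of GRCm38.p6, in the order given.
Rps6: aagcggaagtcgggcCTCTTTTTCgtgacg
Rpl28: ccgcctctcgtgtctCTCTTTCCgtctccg
Rplp2: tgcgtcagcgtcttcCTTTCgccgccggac
Rps10: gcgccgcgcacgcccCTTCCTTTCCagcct
Rps4x: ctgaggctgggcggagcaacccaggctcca

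The libraries were shallow. Whole reads could be recovered from the steps between RPKM values for 12846 genes (77.1%), including 72 of the 75 ribosomal protein genes, and gave between 3015349 and 3583612 mapped reads per library. At this depth 1 read on an exon length of 1 kilobase was worth 0.279 to 0.332 RPKM. Only 14 of the 72 recovered exon lengths equalled an annotated transcript, so the read numbers of the others are estimates. The median over genes and libraries was 79 reads. In every library, 25 genes had at least 100 reads and 7 had fewer than 10.

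Ribosomal protein genes together made up between 4.23% and 4.71% of the RPKM sum of each library. This share counts only values listed under these symbols. Values listed under copies of them, such as Rpl14-ps1 (mean 945 RPKM) and Rplp2-ps1 (756), are not in it. It need not equal the share of these genes in the mRNA. Their RPKM values summed to 6248 and 5902 in the control-labelled libraries, 5882 and 6107 in those labelled Ring1B-KD and 5342 and 6399.9 in those labelled Dzip3-KD. As a percentage of the RPKM sum of all genes, this was 4.45 and 4.42, then 4.40 and 4.47, then 4.23 and 4.71. The libraries labelled Dzip3-KD thus held both the lowest and the highest share, and the 3 means of 4.43% ± 0.018, 4.44% ± 0.051 and 4.47% ± 0.34 (SD, n = 2 each) differed by less than that spread. The shares of files 01-03 and 04-06 were 4.42% ± 0.023 and 4.47% ± 0.24 (SD, n = 3 each). Of the 100 genes with the highest mean RPKM, 13 were ribosomal protein genes.

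Between genes the levels spread widely, although the encoded proteins are needed in equal numbers. Mean RPKM over the 6 libraries ran from 0.347 for Rpl9 to 752 for Rpl41, a 2167-fold range. The median was 27.6 RPKM, with 22.1 over the large-subunit genes and 57.0 over the small-subunit genes. At least 100 RPKM was reached by 17 genes, 37 lay between 10 and 100, 17 between 1 and 10, and 4 below 1. The 8 highest genes supplied 55.3% of the summed RPKM and the 8 lowest 0.189%.

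**Figure D1:**
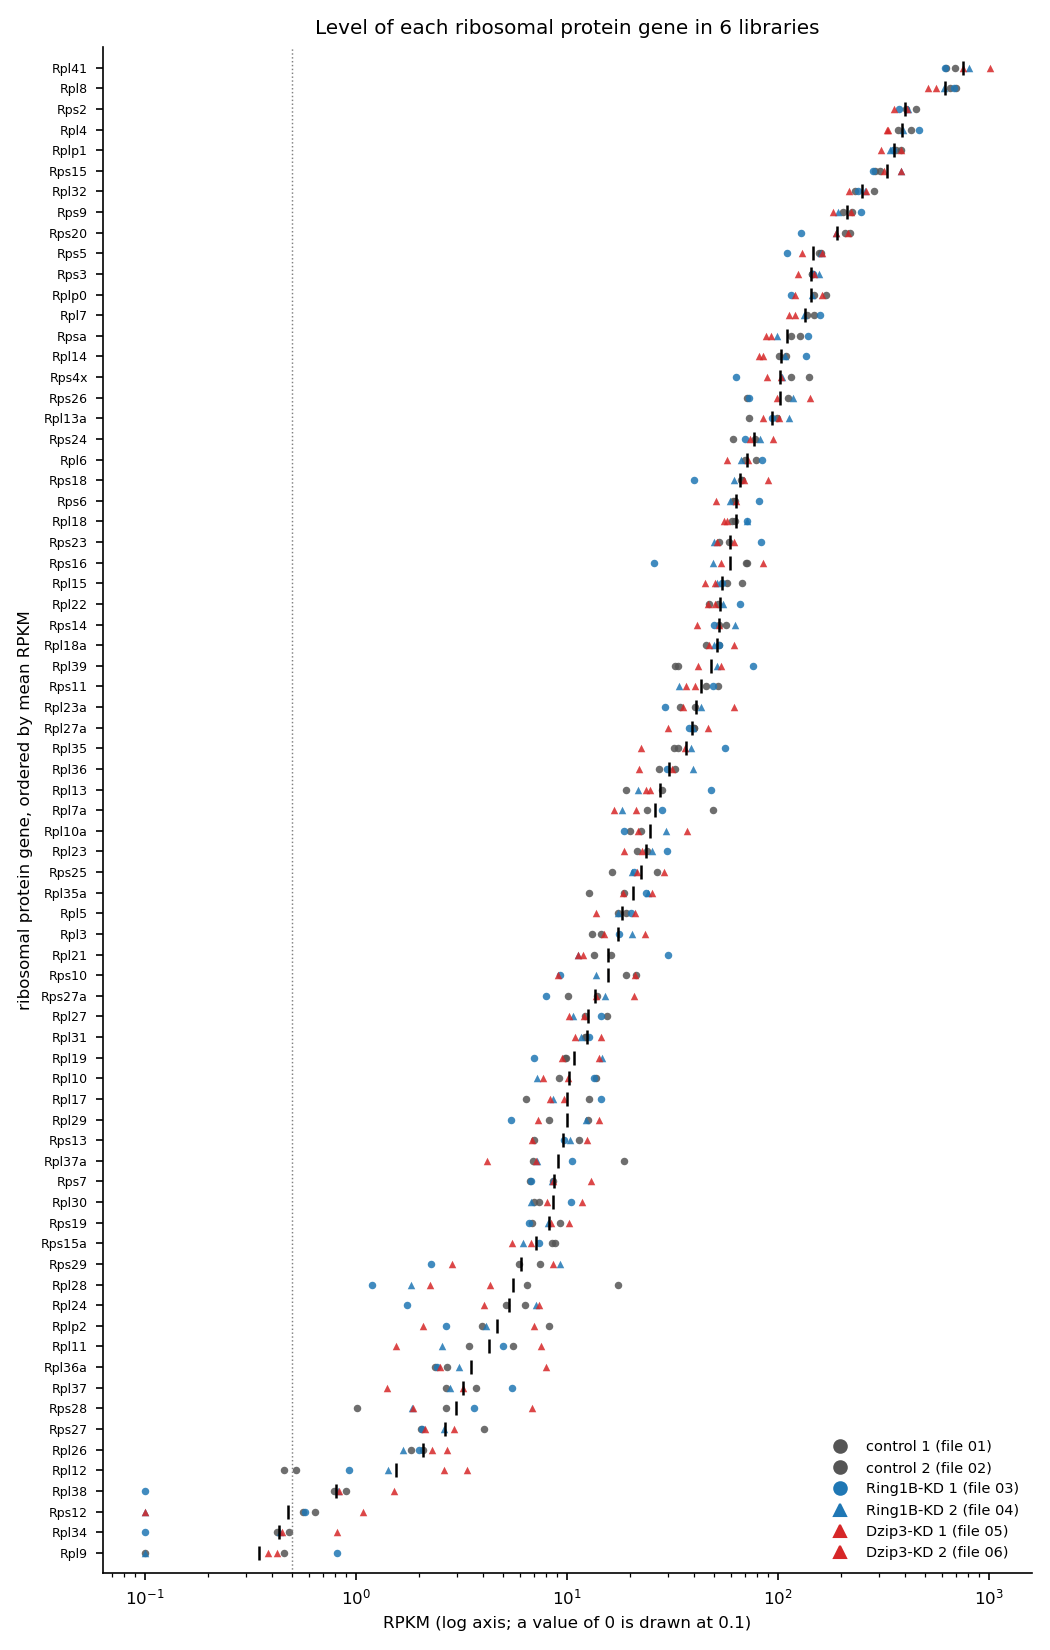
RPKM (horizontal, log axis) of 73 of the 75 ribosomal protein genes (vertical, ordered by mean) in the 6 libraries. Circles are files 01-03 and triangles files 04-06, coloured by label, the black bar is the mean, values of 0 are drawn at 0.1 and the dotted line marks the 0.5 RPKM filter. The means run from 0.347 (Rpl9) to 752 (Rpl41), and the 6 points of a gene lie closer together at the top than at the bottom.

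At the top, Rpl41 encodes a very short basic peptide of the large subunit. It measured 629 and 690.2 RPKM in both control-labelled libraries, 622 and 806 in those labelled Ring1B-KD, and 755 and 1009.9 in those labelled Dzip3-KD. Its 3 highest values were those of files 04-06. Rpl8, a protein next to the peptidyl transferase centre, measured 697 and 654, then 684 and 613, then 516 and 563 RPKM in the same order, with its 3 lowest values in files 04-06. Rps2, at the mRNA entry site of the small subunit, ranged from 355 to 454 RPKM, a coefficient of variation of 8.39% over 6 libraries. The other genes among the 8 highest were Rpl4 (mean 386 RPKM), which lines the peptide exit tunnel, Rplp1 (354), Rps15 (328), Rpl32 (249) and Rps9 (212). Neighbouring means in this order, such as those of Rps2 and Rpl4 with SDs of 33.8 and 54.0 RPKM over 6 libraries, lay within their spread.

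At the bottom, Rpl9, Rpl34 and Rps12 had mean levels of 0.347, 0.433 and 0.475 RPKM and stayed below the filter of 0.5 RPKM used for testing. Together with Rpl38 (0.808 RPKM), known for its role in the translation of Hox mRNAs, they were listed with between 0 and 2 reads per library, and with 5 to 6 reads in all. Values of 0 among them were therefore not distinguishable from a low level at this depth. The next were Rpl12 (1.55 RPKM), which sits at the base of the ribosomal stalk, Rpl26 (2.09), Rps27 (2.63) and Rps28 (2.98). The last rested on 20 reads in all.

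The stalk, which recruits elongation factors, is built from Rplp0 and dimers of Rplp1 and Rplp2. Their levels differed by far more than their libraries did. Rplp0 measured between 116 and 170 RPKM (mean 144 ± 21.7, SD, n = 6) and Rplp1 between 308 and 383 (mean 354 ± 28.6). Rplp2 measured 8.27 and 3.97 RPKM in the control-labelled libraries, 2.69 and 4.12 in those labelled Ring1B-KD, and 2.08 and 6.96 in those labelled Dzip3-KD, on 3 to 11 reads each. Rpl5 and Rpl11, which travel with 5S rRNA and bind Mdm2 when assembly is disturbed, also differed, with 18.2 ± 2.57 and 4.27 ± 2.18 RPKM (SD, n = 6). Rps6, the substrate of S6 kinase, measured 63.2 ± 10.01 RPKM, Rpl10, added late to the large subunit, 10.2 ± 2.80, and Rps4x, an X-linked small-subunit gene, 103 ± 25.9.

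Much of these mRNAs was repeated elsewhere in the genome. For the 74 genes with an mRNA in GENCODE vM1 on mm9 (all but Rpl41), every window of 50 bases was compared with the mm9 genome, allowing 1 mismatch, the allowance the authors used. The median share of windows found at the gene's own locus and nowhere else was 17.7%, against 67.5% for 58 genes of the related lists below. A gene had a median of 9 other matching loci, up to 110. For 3 genes, among them Rps4x and Rps27, no window was found at the own locus alone. With 36-base windows the median share was 15.6%. Windows that cross an exon junction were by rule not counted as found at the own locus, and stayed in the total. The read length was not given in the sources used here.

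Measured on these transcripts, the share did not order the levels. Across the 74 genes its Spearman correlation with mean RPKM was 0.097, and that of the number of other loci was -0.25. These are descriptions over genes of the same libraries. Some transcripts were longer than the exon length recovered from RPKM, with 3706 against 502 bases for Rps20 and 946 against 452 for Rpl35. Both had at least 50% of windows at their own locus alone, some of which may lie outside the counted exons. Whether the share over the counted exons alone orders the levels was not tested. The 14 genes with at least 50% of windows at their own locus alone had a median of 37.8 RPKM, and the 22 with less than 10% a median of 26.9. Rps2 had 2.21% of its windows at chr17:24857008-24858871 alone, with 75 other loci, and yet the third-highest mean, at 402.1 RPKM. Rps4x (chrX:99380282-99384664, minus strand) had none and 103 RPKM. Rpl12 (chr2:32817079-32820016) had 50.7% and 1.55 RPKM. Its windows came from a transcript of 1242 bases, against an exon length of 637 recovered from its RPKM. The 605 windows at its own locus alone may thus lie in sequence that was not counted, so its share is uncertain. Rps12 (chr10:23504990-23507015, minus strand), with 1.07% and 23 other loci, and Rpl9 (chr5:65779603-65782682, minus strand), with 2.76% and 13 other loci, were among the lowest in both respects.

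**Figure D2:**
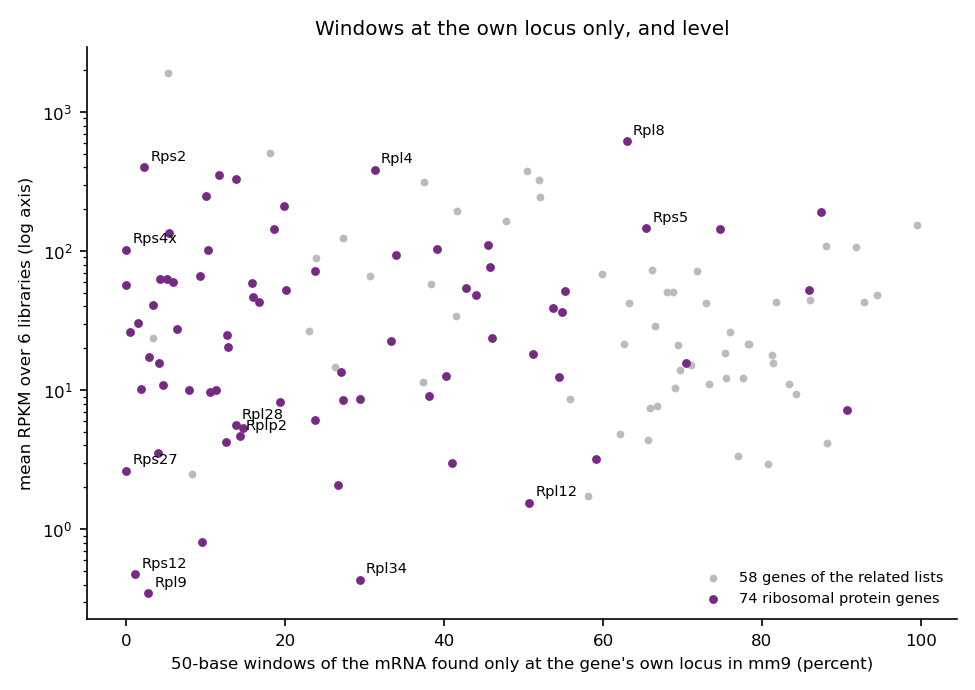
Percent of the 50-base windows of each mRNA found only at its own locus in mm9 (horizontal) against mean RPKM over 6 libraries (vertical, log axis). Purple points are 74 ribosomal protein genes and grey points 58 genes of related lists. Ribosomal protein genes crowd to the left, with a median of 17.7%. High and low levels occur across the range, from Rps2 at 2.21% to Rpl12 at 50.7%. Some shares, that of Rpl12 among them, come from transcripts longer than the exon length recovered from RPKM and are uncertain.

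For several low genes a processed copy was listed under its own symbol, with a far higher value. A copy was counted where at least 150 windows of the mRNA matched it and it overlapped, on the same strand, an exon of another listed gene. Such were 11 copies of 10 ribosomal protein genes, and 7 copies of 6 genes had a higher mean than the gene itself. Rplp2 (chr7:148633749-148637249) had a mean of 4.68 RPKM, and Rplp2-ps1, which lies at chr12:76731916-76732307 on the minus strand and was identical over 99.4% of the coding sequence, 756 RPKM. Rpl37 (3.21 RPKM) stood beside Rpl37rt at 306 RPKM (99.7% identity), and Rpl14 (104 RPKM) beside Rpl14-ps1 at 945 RPKM (98.9%). Rps15a (7.18 RPKM) had 2 such copies, Rps15a-ps4 at 135 RPKM and Rps15a-ps6 at 95.7. Rpl26 and Rpl31 stood at 2.09 and 12.4 RPKM beside Gm15772 at 18.2 and Rpl31-ps12 at 47.8. Copies below their gene were Rps19-ps3 (4.21 against 8.26 RPKM), Gm6654 (27.3 against 102 for Rps26) and Gm10653 (3.24 against 402.1 for Rps2), while Rps27rt, identical to Rps27 over the coding sequence, was listed at 0 or a value rounding to 0 in every library.

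The copies joined what introns separate in the gene. Each pair below shows 60 bases of coding sequence across the first exon junction within it, on the mm9 genome with GENCODE vM1. In the gene's sequence the capitals are the 2 bases on either side of the junction, and in the copy's sequence they are bases that differ from the gene. Rplp2-ps1 matched without a difference at chr12:76732153-76732212, Rps15a-ps4 differed at 3 bases and Rpl31-ps12 at 2.
Rplp2: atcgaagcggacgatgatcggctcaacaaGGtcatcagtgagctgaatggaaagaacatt
Rplp2-ps1: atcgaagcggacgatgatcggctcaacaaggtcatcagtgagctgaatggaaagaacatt
Rps15a: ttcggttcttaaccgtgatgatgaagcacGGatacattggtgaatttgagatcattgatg
Rps15a-ps4: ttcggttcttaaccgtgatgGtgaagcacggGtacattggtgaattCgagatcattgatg
Rpl31: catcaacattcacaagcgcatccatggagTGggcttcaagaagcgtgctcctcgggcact
Rpl31-ps12: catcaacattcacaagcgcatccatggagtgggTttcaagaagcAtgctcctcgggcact

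For Rplp2, Rpl37, Rps15a and Rpl14 the copies were also the steadier of the pair. Rplp2-ps1 measured 730.1 and 747 RPKM in the control-labelled libraries, 801 and 755 in those labelled Ring1B-KD and 694 and 811 in those labelled Dzip3-KD, a coefficient of variation of 5.83% against 52.0% for Rplp2. The same values were 7.11% for Rpl37rt against 41.9% for Rpl37, and 11.8% for Rpl14-ps1 against 19.1% for Rpl14. Counting error alone was 38.3% for Rplp2 and 32.7% for Rpl37, on 41 and 56 reads in all. Their spreads were 1.36 and 1.28 times that. For Rps15a and Rpl14 the counting error was 9.04% and 5.57%. The order was the other way for Rpl31-ps12 and Rpl31, at 15.4% and 9.98%. Of the copies below their gene, Rps19-ps3 (66.2% against 16.8%) and Gm10653 (48.8% against 8.39%) varied more and Gm6654 (15.99% against 26.5%) less. The values of Gm15772 were 8.71 times those of Rpl26 in each of the 6 libraries, so the deposited values of this pair are not independent measurements, and the read number of Rpl26 is uncertain. A read shared by a gene and its copy cannot be told apart from the RPKM values, so the levels of these pairs are uncertain.

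**Figure D3:**
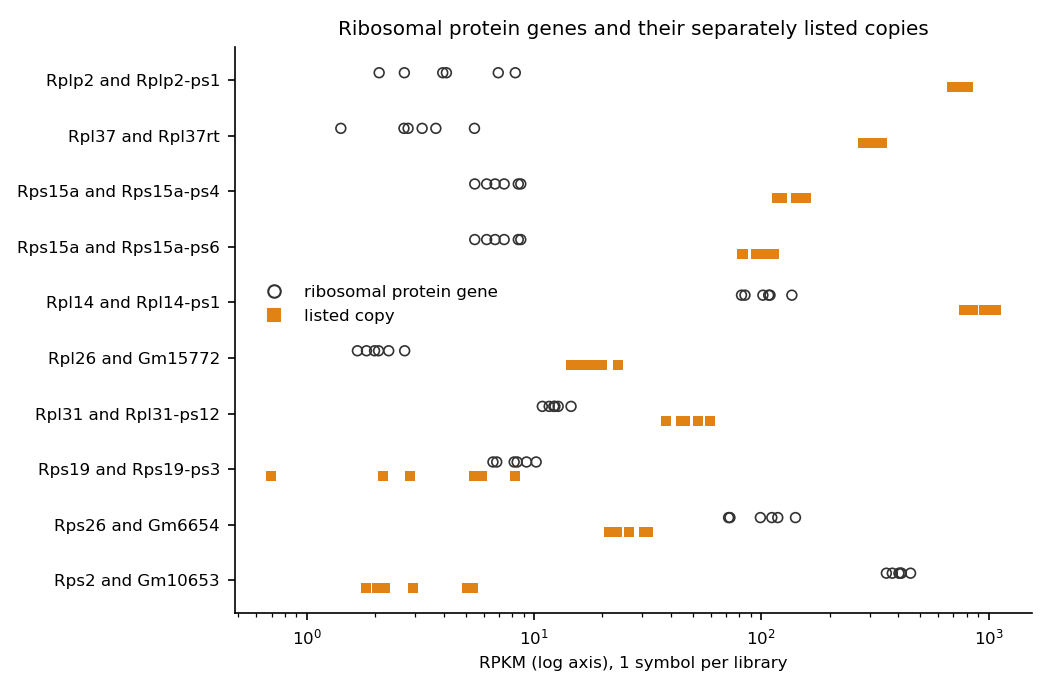
RPKM (log axis) of ribosomal protein genes (open circles) and of their separately listed copies (orange squares), with 1 symbol for each of the 6 libraries, ordered by the ratio of the means. The copies of Rplp2, Rpl37, Rps15a, Rpl14, Rpl26 and Rpl31 lie above the gene in every library, as the top 7 rows show.

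Over the 6 libraries the median coefficient of variation of a ribosomal protein gene was 22.8%. It was below 20% in 35 genes and above 50% in 11. For the 25 genes with at least 100 reads in every library it ran from 7.29% to 25.3%, with a median of 13.9%. For 36 of the 72 genes with recovered reads, the spread was more than 2 times what counting reads alone would give. By this ratio the largest spreads were those of abundant genes, 6.49 times for Rpl41, 5.97 for Rpl4 and 4.83 for Rpsa, whose counting error was small.

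The 5 genes with the largest coefficients of variation were Rpl28 (109%), Rpl9 (89.4%), Rps12 (87.2%), Rpl12 (76.7%) and Rps28 (69.9%). For Rpl9, Rps12, Rpl12 and Rps28, counting error alone amounted to between 54.8% and 110% of the mean, and their spread was at most 1.40 times that. Rpl28, a large-subunit protein, was different. It measured 17.4 and 6.47 RPKM in the control-labelled libraries, 1.195 and 1.83 in those labelled Ring1B-KD and 4.32 and 2.25 in those labelled Dzip3-KD, on 26, 11, 2, 3, 7 and 4 reads. File 01 stood far above the rest, and the spread was 3.25 times the counting error. Rpl28 (chr7:4744476-4746164) had 13.7% of its windows at its own locus alone and 4 other loci.

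The libraries were not equally placed among the 72 genes that passed the filter. File 03, the first library labelled Ring1B-KD, held the highest or the lowest of the 6 values for 35 genes (highest for 16, lowest for 19). File 05 held the lowest value of 25 genes and file 06 the highest of 26. The same counts over all genes were not made. File 05 also had the lowest RPKM sum over all genes, 126356 against 133475 to 140481 in the others. Whether these counts are particular to ribosomal protein genes was not tested. In file 03 the sum over the large subunit was 1.76 times that over the small subunit, against 1.44 to 1.52 in the other libraries. Small-subunit genes that were lowest there included Rps16, at 26.02 RPKM against 49.2 to 84.8 elsewhere, and Rps4x, at 63.3 against 88.4 to 141. The large-subunit gene Rpl39 was highest there, at 76.0 RPKM against 32.6 to 53.8 elsewhere. Changes that this library moved most are given with and without it.

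The first comparison set the libraries labelled Ring1B-KD against those labelled control. Rnf2 was not lowest in those labelled Ring1B-KD, so this grouping is not a test of Ring1B knockdown itself. By label, none of the 72 ribosomal protein genes passed the test (limma on log2(RPKM + 1), Benjamini-Hochberg (BH) adjusted p at 0.05 over 11538 genes), and no other gene did either (0%). At an unadjusted p under 0.05 the count was 6 (8.33%), 2 higher and 4 lower, beside 5.1% of all genes (2.23% higher and 2.88% lower). The median log2 change was -0.0042 over the ribosomal protein genes and -0.017 over all genes tested. Above 0 were 36 of 72, beside 5441 of all 11538 genes. Among large-subunit genes the median was 0.043 and among small-subunit genes -0.10, and without file 03 these were -0.024 and -0.053. Every library labelled Ring1B-KD lay above both controls for 9 genes (12.5%, beside 14.9% of all genes) and below both for 13 (18.1%, beside 18.9%).

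The 3 genes with the smallest p-values in that comparison were Rpl28, Rpl39 and Rps16. For Rpl28, whose values are given above, the groups did not overlap, and the log2 change was -2.23 ± 0.41 (SE, limma BH-adjusted p = 0.902). The 5 reads in the libraries labelled Ring1B-KD stood against 37 in the controls, a ratio of 0.1304 with a 95% exact interval of 0.0400 to 0.333 that covers counting error only. Without file 01 the log2 change was -1.58. For Rpl39, a small protein of the exit tunnel, the values were 33.7 and 32.6 RPKM in the libraries labelled control against 76.0 and 51.5 in those labelled Ring1B-KD, and the log2 change was 0.90 ± 0.22 (SE, limma BH-adjusted p = 0.902). Without file 03 it was 0.62. For Rps16 they were 71.7 and 70.6 against 26.02 and 49.2 RPKM, a log2 change of -0.97 ± 0.31 (SE, limma BH-adjusted p = 0.902), which was -0.52 without file 03. The groups were apart in each case, but none of the 3 changes passed the threshold. By file-name word, Ring1BKD against control, they were -0.19 for Rpl28, -0.17 for Rpl39 and 0.052 for Rps16, so the last 2 turned in direction.

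The second comparison set the libraries labelled Dzip3-KD against those labelled control. Here again none of the 72 genes passed, and no gene of all those tested (0%). At an unadjusted p under 0.05 the count was 8 (11.1%), 2 higher and 6 lower, beside 12.2% of all genes (5.24% higher and 6.99% lower). The median log2 change was -0.093 beside -0.067 over all genes, and 28 of 72 were above 0, beside 4899 of all 11538. Without file 05 the median over the ribosomal protein genes was 0.060, and without file 06 it was -0.23, so its direction rests on file 05. Both libraries labelled Dzip3-KD lay above both controls for 8 genes (11.1%, beside 20.4% of all genes) and below both for 15 (20.8%, beside 30.3%). Since both controls are files 01 and 02 and both libraries labelled Dzip3-KD are files 05 and 06, label and file order cannot be told apart from these libraries alone.

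Rpl12 and Rpl28 were among the genes with the smallest p-values. Rpl12 measured 0.520 and 0.457 RPKM in the libraries labelled control against 3.36 and 2.62 in those labelled Dzip3-KD, on 1 and 1 reads against 7 and 6. The groups did not overlap. The log2 change was 1.42 ± 0.24 (SE, limma BH-adjusted p = 0.254). The ratio of reads was 6.12, with a 95% exact interval of 1.38 to 55.8 that covers counting error only. With the file set as a block, which rests on the libraries labelled Ring1B-KD that fall in both sets, the log2 change was 1.09 ± 0.38 (limma BH-adjusted p = 0.829). By file-name word, Dzip3KD against control, it was 0.46 ± 0.26 (limma BH-adjusted p = 0.774), and that of Rpl28 was -1.43. The log2 change of Rpl28 was -1.49 ± 0.41 (SE, limma BH-adjusted p = 0.311), and -0.84 without file 01.

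The Dzip3-KD-labelled libraries were then set against the Ring1B-KD-labelled ones. None of the 72 genes passed, as was the case for all genes (0%), and 5 (6.94%) had an unadjusted p under 0.05, 3 higher and 2 lower, beside 4.63% of all genes (1.61% higher and 3.02% lower). The Dzip3-KD libraries lay above both others for 10 genes (13.9%, beside 12.6% of all genes) and below both for 11 (15.3%, beside 20.4%). The median log2 change was -0.027, beside -0.032 over all genes. The smallest p-values were those of Rpl12, Rpl14 and Rps16, each with a limma BH-adjusted p = 0.864. Rpl12, with 0.929 and 1.42 RPKM in the libraries labelled Ring1B-KD, changed by 0.88 ± 0.24 (log2, SE), on 13 reads against 5. Rpl14, a large-subunit protein, measured 81.8 and 84.8 RPKM in the libraries labelled Dzip3-KD against 136 and 108, a log2 change of -0.54 ± 0.18, or -0.37 without file 03. Rps16, with 53.8 and 84.8 RPKM against 26.02 and 49.2, changed by 0.90 ± 0.31, or 0.45 without file 03. These groups did not overlap. By file-name word, Dzip3KD against Ring1BKD, Rpl14 (0.23) and Rps16 (-0.38) turned in direction, and Rpl12 changed by 0.069 ± 0.26 (limma BH-adjusted p = 0.956). This comparison shares its libraries with the others, so their values are not independent.

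**Figure D4:**
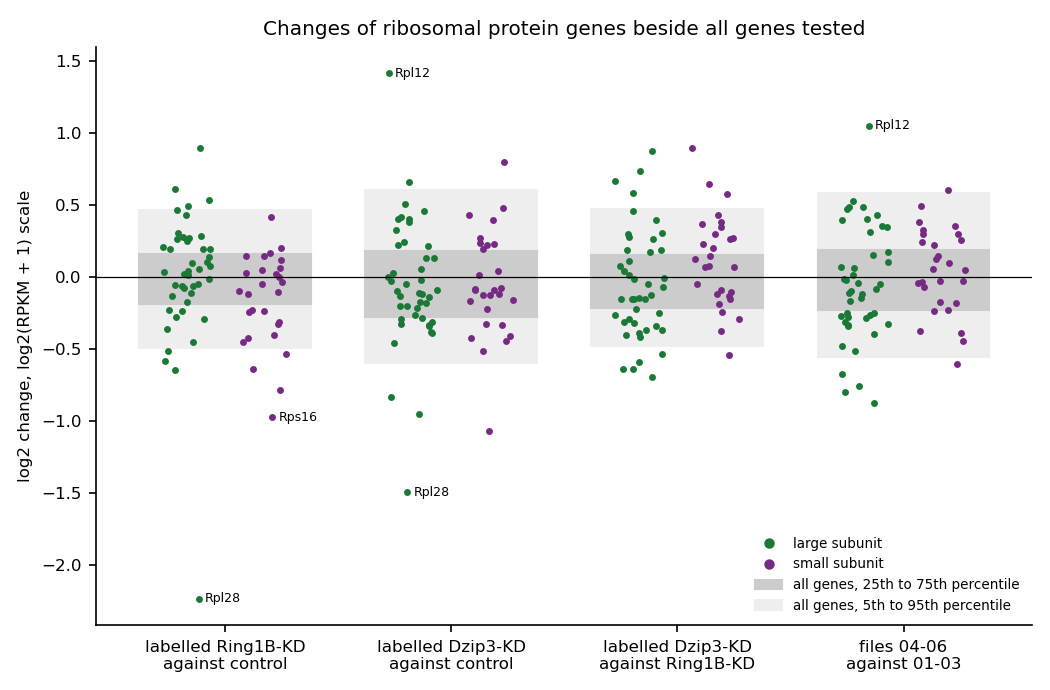
Log2 change of each tested ribosomal protein gene (green, large subunit, n = 44, and purple, small subunit, n = 28) in the 4 comparisons, over grey bands for all 11538 genes tested (25th to 75th and 5th to 95th percentile). Names mark genes beyond 0.95 in either direction that the text describes. In each comparison the points centre near 0, and Rpl12 in files 04-06 against 01-03 is the only point past an adjusted p of 0.05.

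Files 04-06 were set against files 01-03 because the libraries of these data were already known to divide by file number. The calls are therefore a description. The summed neural markers measured 19.5 to 28.0 RPKM in files 01-03 and 27.4 to 39.0 in files 04-06. These ranges overlapped, and none of the 4 tested passed. In the same comparison 1 of 10 ES cell markers and 1 of 3 tested primitive endoderm markers passed as higher, and 1 of 3 tested trophectoderm markers as lower. The part of these markers in the results was not tested. Across all genes 638 passed (5.53%, with 3.09% higher and 2.44% lower), and of the 72 ribosomal protein genes 1 did (1.39%), Rpl12. At an unadjusted p under 0.05 the shares were 23.6% (17 genes, 7 higher and 10 lower) and 23.2% of all genes. The median log2 change was -0.029, beside -0.040 over all genes. Large-subunit genes had a median of -0.087 and small-subunit genes of 0.057. Without file 03 these were -0.038 and -0.081, and without file 06 -0.15 and -0.043, so the direction of the small-subunit median rests on either library. Every one of files 04-06 lay above every one of files 01-03 for 3 genes (4.17%, beside 13.1% of all genes) and below for 9 (12.5%, beside 15.5%).

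Rpl12 measured 0.520, 0.457 and 0.929 RPKM in files 01-03 and 1.42, 3.36 and 2.62 in files 04-06. All 3 later files lay above all 3 earlier ones, and the log2 change was 1.05 ± 0.24 (SE, limma BH-adjusted p = 0.0343). It rested on 4 reads against 16, a ratio of 3.87 with a 95% exact interval of 1.25 to 15.9 that covers counting error only. The call was lost without file 01, 02, 03, 05 or 06 (adjusted p from 0.0539 to 0.115) and kept only without file 04 (0.0383). Rpsa, a small-subunit protein that also serves as the laminin receptor precursor, measured 127, 116 and 139 RPKM in files 01-03 and 99.0, 88.2 and 92.7 in files 04-06. The sets did not overlap, and the log2 change was -0.44 ± 0.12 (SE, limma BH-adjusted p = 0.0597). Rpsa did not pass in this fit, nor with any library left out. With 75th percentile scaling, a pseudocount of 0.1 or no filter on low values, Rpsa did not pass either. It passed where the file-name word was kept as a block (adjusted p = 0.0399, in a fit that called 4 of the 72 genes, 5.56%, beside 7.62% of all genes), where only genes of at least 5 RPKM were tested (0.0428), where values were scaled to the sum of the other genes (0.0475) or quantile normalized (0.0377), and on recovered reads (0.0196).

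**Figure D5:**
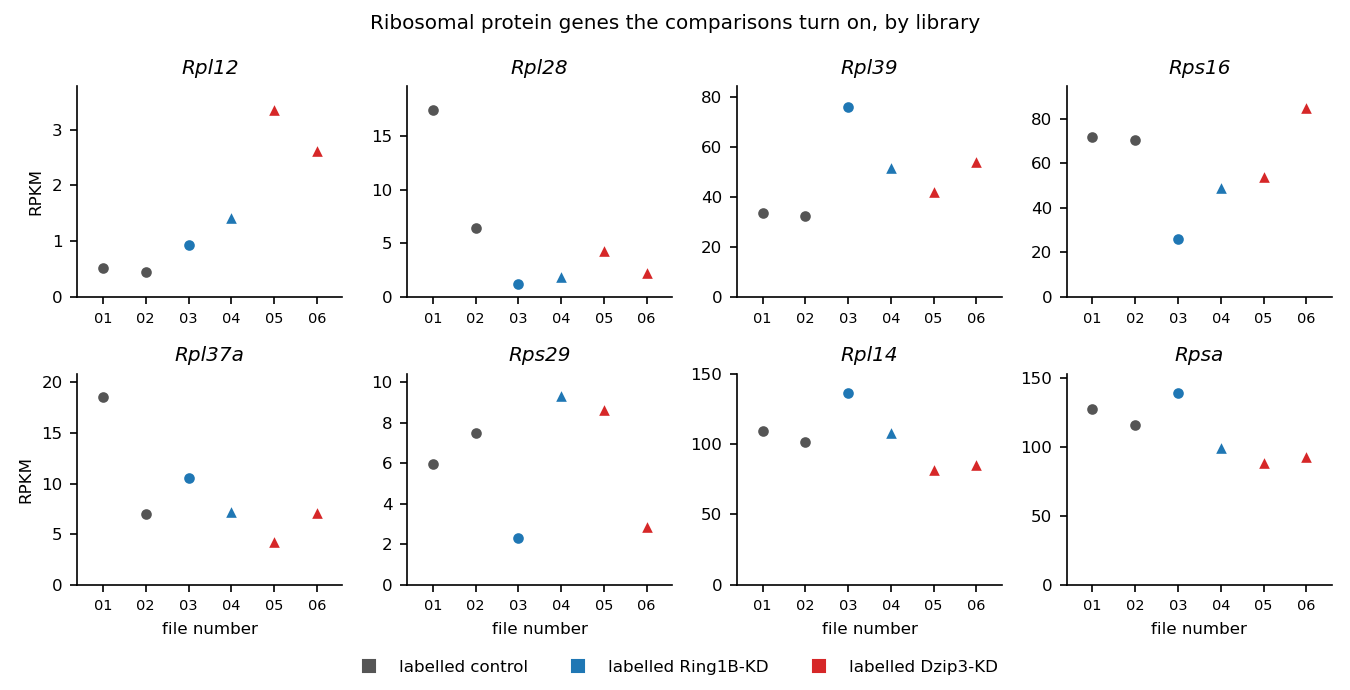
RPKM (vertical, from 0) of 8 ribosomal protein genes in files 01 to 06 (horizontal), coloured by label, with circles for files 01-03 and triangles for files 04-06. Rpl12 is higher and Rpsa lower in every one of files 04-06, Rpl28 stands at 17.4 in file 01, and Rps29 is lowest in files 03 and 06, which both carry the word Dzip3KD.

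By file-name word the groups are files 01 and 04 (control), 02 and 05 (Ring1BKD), and 03 and 06 (Dzip3KD), with 1 library of each file set in every group, and the set was kept as a block. For Ring1BKD against control none of the 72 genes passed, beside 0.416% of all genes, and their median log2 change was -0.16 beside -0.082. At an unadjusted p under 0.05 there were 3 (4.17%), beside 8.31%. For Dzip3KD against control none passed and no other gene did (0%), while 9 (12.5%) had an unadjusted p under 0.05, beside 6.52%, and the medians were 0.014 and -0.030. For Dzip3KD against Ring1BKD 1 gene passed (1.39%), beside 0.676% of all genes, and 18 (25%) had an unadjusted p under 0.05, beside 10.1%. The medians were 0.13 and 0.052. Both comparisons with control share the same libraries, files 01 and 04.

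The gene that passed was Rps29, a small zinc-binding protein of the small subunit, named here after its values were seen. It measured 5.95 and 9.31 RPKM in the files with the word control, 7.48 and 8.63 in those with Ring1BKD, and 2.28 and 2.86 in those with Dzip3KD. The last group lay below both others, with a log2 change of -1.34 ± 0.18 (SE, limma BH-adjusted p = 0.0184) against Ring1BKD and -1.25 ± 0.18 (adjusted p = 0.302) against control. These values rested on 3 and 4 reads against 7 to 12. Rpl37a, also chosen after its values were seen, measured 18.6 and 7.20 RPKM in the files with the word control and 6.94 and 4.16 in those with Ring1BKD (log2 change -0.99 ± 0.21, SE, limma BH-adjusted p = 0.148).

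Genes that make or regulate ribosomes were placed beside these values from lists set up for this purpose. The ribosome biogenesis and RNA polymerase I list had 30 tested genes, with a median log2 change of -0.34 in files 04-06 against 01-03, where all genes had -0.040 and the ribosomal protein genes -0.029. Of the 30, 1 passed, lower, beside 2.44% of all genes, and at an unadjusted p under 0.05 there were 15, all lower, beside 12.2% of all genes lower. It was Ncl (nucleolin), at 131, 115 and 161 RPKM in files 01-03 and 88.7, 78.1 and 84.1 in files 04-06, a log2 change of -0.68 ± 0.14 (SE, limma BH-adjusted p = 0.0263). This call was lost without file 01, 04, 05 or 06 (adjusted p from 0.071 to 0.0904) and without a filter on low values (0.072). Nop58, a core protein of box C/D snoRNPs, had -0.44 ± 0.11 (SE, limma BH-adjusted p = 0.0564). Genes outside the ribosome whose mRNAs also carry TOP tracts, most of them translation factors, had a median of -0.24 over 18 tested genes. Of these 18, 1 was above 0, beside 5154 of all 11538 genes. None of the 18 passed, and 4 had an unadjusted p under 0.05, all lower, beside 12.2% of all genes lower and 23.2% in either direction. Eif3l, a subunit of the initiation factor eIF3, had -0.36 ± 0.11 (limma BH-adjusted p = 0.0931), and Vim (vimentin, an intermediate filament protein) -0.52 ± 0.16 (adjusted p = 0.0967).

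Among 16 regulators of ribosomal protein mRNA synthesis and translation the median was -0.18, and 2 passed, both lower, beside 2.44% of all genes. At an unadjusted p under 0.05, 1 was higher and 5 were lower, beside 11% and 12.2% of all genes. Myc, a transcription factor that drives ribosome production, measured 4.84, 4.13 and 3.58 RPKM in files 01-03 and 0.883, 0.893 and 0.814 in files 04-06. These sets were far apart, with a log2 change of -1.47 ± 0.16 (SE, limma BH-adjusted p = 0.00241). Larp1 measured 29.98, 31.5 and 29.1 and then 18.2, 17.9 and 19.8 RPKM, a log2 change of -0.67 ± 0.11 (SE, limma BH-adjusted p = 0.0147), a call lost without file 04 (adjusted p = 0.0612) or file 06 (0.0542). The ribosomal protein genes encoded outside the symbol rule, such as Fau, numbered 13, of which 11 were tested, and their median was -0.12. None passed, with -0.37 ± 0.13 for Fau (limma BH-adjusted p = 0.141) and -0.44 ± 0.17 for Rpl39l (adjusted p = 0.160). In the comparison of libraries labelled Dzip3-KD with control, none of these genes passed. The medians there were -0.35 for ribosome biogenesis, -0.33 for the other TOP genes and -0.21 for the regulators, beside -0.093 for the ribosomal protein genes.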

How the data were processed

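A MiSeq instrument was used to sequence the 6 libraries, made with a stranded mRNA kit. The authors aligned the reads to mm9 with the Illumina Analysis Pipeline, allowing 1 mismatch, and deposited RPKM computed from reads that mapped uniquely to a gene, which can lower or shift values where copies exist. Software versions, gene annotation and read length were not given in the sources used here. Groups followed the labels. Genes averaging 0.5 RPKM or more (11538, of which 72 ribosomal protein genes) were tested on log2(RPKM + 1), a scale that understates changes of low genes, with limma 3.58.1 (trend, all 6 libraries, R 4.3.3) and Benjamini-Hochberg adjustment. Alternatives were other pseudocounts, filters, scalings, blocks and groupings, each library left out, and voom on whole reads recovered within 0.02 reads. The scripts were tested on simulated data. Windows and copies were matched to the NCBIM37 (mm9) sequence. Python was 3.11.15.

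Ribosomal protein genes and all gene lists were chosen with earlier results of these data known. Named genes were the 8 highest and 8 lowest, the 5 most variable, those past the threshold or otherwise the 3 with the smallest p in each comparison, fixed members (Rplp0, Rplp1, Rplp2, Rpsa, Rpl28, Rpl5, Rpl11, Rps6, Rpl10, Rps4x) and, from the related lists, the 2 with the smallest p. Marker lists are given as sums. For 2 ribosomal protein genes, values of their own are not reported here, though the counts and medians include them. P-values measure the spread between these libraries.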

Additional observations from a re-analysis of the deposited data

How the results depend on the processing

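In the 3 comparisons by label, no ribosomal protein gene passed under any alternative by label. By file-name word 1 (Rps29) passed in Dzip3KD against Ring1BKD, and log2 changes turned for Rpl39 (-0.17) and Rps16 (0.052) in Ring1BKD against control and for Rpl14 (0.23) and Rps16 (-0.38) in Dzip3KD against Ring1BKD. With a library left out, the median change ranged from -0.047 to 0.046 for Ring1B-KD against control, from -0.23 (without file 06) to 0.060 (without file 05) for Dzip3-KD against control, from -0.15 (without file 06) to 0.16 (without file 05) for Dzip3-KD against Ring1B-KD, and from -0.097 to 0.063 for files 04-06 against 01-03. For files 04-06 against 01-03, the count of 1 became 0 without a filter, 3 with quantile normalization (Rpl12, Rps15 and Rpsa), 2 scaled to the sum of other genes (Rpl12 and Rpsa), 4 with the file-name word as a block (Rpl12, Rpl37a and Rpsa among them), and 3 on recovered reads (Rpl41, Rpl7a and Rpsa, chosen after seeing the data), and ranged from 0 to 1 with a library left out. With a minimum of 5 RPKM the 1 gene was Rpsa, and without file 05 it was Rpl10a. For files 04-06 against 01-03 all genes called numbered 638, and 285 without a filter, 1071 on recovered reads and 67 without file 06, and for Dzip3-KD against control 0, but 24 on those 4 libraries alone and 25 and 27 without file 03 and file 04. Where leaving out a library left 1 in a group, it was assumed to vary like the others. The cause was not tested. Leaving the 10 highest genes out of the sums lowered the mean share from 4.45% to 3.81%. By library the share then ran from 3.55% in file 05 to 4.34% in file 06, with 3.69% to 3.81% in the others. The 10 genes were each library's own, and held 2 ribosomal protein genes in files 01 to 05 but 1 in file 06. These shares are therefore not over the same genes, and that of file 06 is not directly comparable. With 36-base windows the median share at the own locus was 15.6% in place of 17.7%.

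With the replicate number as a block, 0 ribosomal protein genes passed in each comparison by label, and 1 of all genes passed in Dzip3-KD against control in place of 0. The block changed no other call. Libraries with the same number did not deviate together (correlations of -0.036, -0.24 and 0.044), so the numbers do not pair them, and with crossed numbers 0 genes passed. For the 7 genes with fewer than 10 reads in every library, counting error set the precision.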

Other observations

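Several paralogs that the symbol rule leaves out had higher values than the ribosomal protein gene they resemble. Rpl36al had a mean of 138 RPKM over the 6 libraries against 3.52 for Rpl36a, Rpl10l 82.5 against 10.2 for Rpl10, Rps27l 23.8 against 2.63 for Rps27, and Rps4l 287 against 103 for Rps4x. The reverse held for Rpl39l (13.9 against 48.2 for Rpl39), Rpl22l1 (7.04 against 52.97 for Rpl22), Rpl7l1 (37.2 against 135 for Rpl7) and Rpl3l (0.126 against 17.4 for Rpl3). Rps4l measured 335 and 284 RPKM in the control-labelled libraries, 319 and 279 in those labelled Ring1B-KD and 234 and 272 in those labelled Dzip3-KD. Rps4x was lowest in file 03, whereas Rps4l was second-highest there. No part of the reads of a pair can be assigned from these values.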
